A study of Saccharomyces cerevisiae with 4 samples.

Results

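The 10 genes described here encode the glycolytic enzymes that carry glucose phosphate to the phosphoglycerates in the budding yeast *Saccharomyces cerevisiae*: PGI1, PFK1, PFK2, FBA1, TPI1, TDH1, TDH2, TDH3, PGK1 and GPM1. They were taken by gene name from the 5816 genes of the deposited tables, and all 10 were found in every table and passed the filter on low counts. RNA was compared between a wild-type strain and a strain with a CHD1 deletion, both in the BY4741 background, with 2 libraries of each genotype. CHD1 encodes a chromatin-remodelling ATPase, which the series title connects with elongation factors and with methylated histone domains at active genes. Both strains were grown in YPD, a rich glucose medium, at 30 °C to mid-log phase, at an optical density between 0.6 and 0.8 per the labels. The labels do not say whether the replicates are separate cultures or whether the deletion strain is 1 clone. P-values therefore measure the spread between these libraries only, which may be technical.

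Glycolysis turns glucose into pyruvate and yields ATP, and a yeast culture in glucose medium uses it as its main source of energy. In the upper part, hexose phosphate is isomerized, phosphorylated and split into a pair of triose phosphates. In the triose phosphate part, glyceraldehyde-3-phosphate dehydrogenase oxidizes them with NAD, phosphoglycerate kinase makes ATP, and the mutase moves the phosphate group. The genes are among the most highly expressed in glucose-grown yeast, and the activators Gcr1, Gcr2 and Rap1 are known to drive many of them.

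Gene reads ranged from 2145684 to 4117998 per library. The wild-type libraries held 211 and 396 reads of CHD1 itself against 7 and 3 in the deletion libraries, in the direction of the labels. Of 5488 genes tested, 4.74% passed the test between genotypes. Adjusted p-values come from the quasi-likelihood test of edgeR, adjusted over all tested genes by Benjamini and Hochberg's method, and pass under 0.05. BY4741 is an a-cell strain, and 5 a-cell genes summed to between 1131 and 1281 CPM, while 4 alpha-cell genes held between 37 and 109 reads. Most of those reads were of SAG1, with between 34 and 81 reads a library (12.9 to 18.8 CPM). The lowest a-cell gene, MFA1, was at 27.6 to 31.6 CPM. MF(ALPHA)1, which encodes alpha-factor, had at most 1 read in a library, MF(ALPHA)2 at most 13, and the a-factor receptor gene STE3 between 3 and 14. CPM are reads per 1000000 on library sizes scaled with TMM, and levels are given as mean ± SD with n = 2. Errors of log2 fold changes, written as deletion minus wild type, are standard errors. In RNA from a whole culture, fewer cells that express a gene and less RNA per cell cannot be told apart.

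In the cells without CHD1, 2 of the 10 genes fell, PFK2 and TDH2, each by 0.35 on the log2 scale, and 8 did not pass. Among all tested genes 3.06% were called lower and 1.68% higher. With edgeR 0 members rose, and 3 had an unadjusted p under 0.05, all lower. Over all 5488 tested genes 1073 had such a p, in either direction. DESeq2 called 2 members lower and 0 higher. Of the 1078 genes to which it gave an adjusted p, it called 143 lower and 23 higher. Between the genotypes 5 members had CPM that did not overlap, all lower in the deletion (PGI1, PFK1, PFK2, TDH2 and TDH3), where the same held for 24.4% of all tested genes. The other 5, FBA1, TPI1, TDH1, PGK1 and GPM1, had overlapping levels. The median log2 fold change of the 10 genes was -0.12, and that of all tested genes was 0.0044. Gene length correlated with the log2 fold change at a Spearman rho of -0.49 across the 10 genes and -0.15 across all tested genes. With the log2 ratio of wild-type replicate 1 to 2 it correlated at -0.46 and -0.17. The part of length in the differences was not tested.

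As a group the 10 genes took nearly the same share of the library in both genotypes. They held 5.01% of gene reads in wild-type replicate 1 (95% Wilson interval 4.98 to 5.04) and 4.86% in replicate 2 (4.83 to 4.88). In the deletion they held 5.07% in replicate 1 (5.04 to 5.09) and 4.95% in replicate 2 (4.92 to 4.97). The genotypes overlapped, and the means of 4.93% and 5.01% differed by 0.0739 percentage points (two-sided exact permutation test, p = 0.667; 2 libraries against 2 cannot give less than 0.333). These intervals cover counting error only. Genes that overlap ribosomal RNA genes took 9.67% and 7.75% of gene reads in wild type against 10.5% and 11.6% in the deletion. Their share was higher in both deletion libraries (exact permutation p = 0.333), but the wild-type libraries also differed from each other. Without those genes the 10 genes held 5.54% and 5.26% in wild type against 5.66% and 5.60% in the deletion, which did not overlap (exact permutation p = 0.333). The TMM scaling and the total of gene reads placed the 10 genes differently; TMM factors computed without the overlapping genes and the 10 genes gave the same median of -0.12. With total gene counts as library sizes the median of all genes was 0.11 on the log2 scale, that of the 10 genes -0.019, and 0 of them passed. Relative to the median of all genes the 10 genes lay at -0.13 under both scalings, and at -0.053 with TMM when wild-type replicate 1 was left out.

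**Figure D1:**
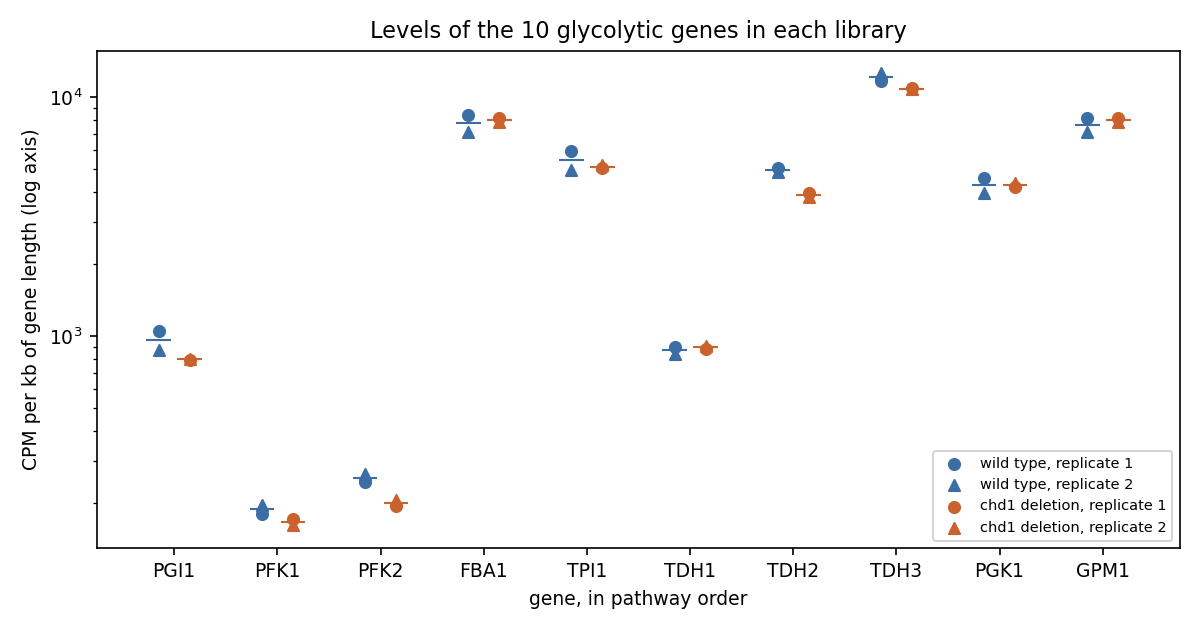
CPM per kb of gene length (log axis) for the 10 genes in pathway order, with each library as a point and the mean of each genotype as a line (n = 2). TDH3 is the highest in all libraries and PFK1 the lowest, and the points of PFK2 and TDH2 lie lower in both deletion libraries than in both wild-type libraries.

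Levels between genes were compared per kb of the length given in the tables, which exceeds the coding length of each gene by 105 to 484 bases. In wild type TDH3 had the highest level, 12125 ± 648 CPM per kb, rank 9 of the 5488 tested genes. Genes that overlap ribosomal RNA genes were not removed before ranking. FBA1 (7819.6 ± 902) and GPM1 (7670.2 ± 768) followed, and their libraries overlapped. TPI1 (5455 ± 719) and TDH2 (4963 ± 125) also overlapped, and PGK1 was at 4281 ± 417. The remaining genes stood apart at lower levels: PGI1 at 960.3 ± 124 and TDH1 at 872 ± 45.5 overlapped, and PFK2 (255 ± 13.5) and PFK1 (188 ± 11.9) did not. PFK1 ranked 511 in wild type. In the deletion, neighbours in the order changed places: PGK1 (4289 ± 116) lay above TDH2 (3898 ± 118) and TDH1 (896 ± 18.2) above PGI1 (799 ± 6.75), each without overlap between libraries.

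The hexose phosphate steps held 1 of the 2 calls. PGI1 (YBR196C, chromosome II, 612236 to 613900) encodes glucose phosphate isomerase, which turns glucose phosphate into fructose phosphate. Its level was 1953 and 1627 CPM in wild type and 1479.7 and 1498 CPM in the deletion. Both deletion libraries were lower than both wild-type libraries, and the gap between the wild-type libraries, 0.26 on the log2 scale, was nearly as wide as the difference between genotypes (-0.27 ± 0.10, adjusted p = 0.144).

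PFK1 (YGR240C, chromosome VII, 970771 to 973734) and PFK2 (YMR205C, chromosome XIII, 671887 to 674766) encode the alpha and beta subunits of phosphofructokinase, which commits the sugar to glycolysis by a further phosphorylation and is the main point of allosteric control. PFK2 was at 754 and 813 CPM in wild type and at 598 and 634 CPM in the deletion. The deletion libraries were the lower ones, and the log2 fold change was -0.35 ± 0.10 (adjusted p = 0.0406); the level fell by 21.5%, with a 95% interval from -31.7% to -9.82%. PFK1 was at 620.2 and 678 CPM in wild type and at 589 and 557 CPM in the deletion. Its levels did not overlap either, but its difference did not pass (-0.18 ± 0.10, adjusted p = 0.314; interval -0.38 to 0.02). The ratio of PFK2 to PFK1 reads, which needs no scaling of libraries, was 1.22 and 1.20 in wild type against 1.02 and 1.14 in the deletion. Both deletion ratios were lower, by 0.17 on average on the log2 scale (exact permutation p = 0.333, the smallest this design allows). The difference was -0.085 when deletion replicate 1 was left out and -0.25 when deletion replicate 2 was. The call of PFK2 did not hold with total gene counts (adjusted p = 0.157), nor when wild-type replicate 2 (0.0550), deletion replicate 1 (0.400) or deletion replicate 2 (0.228) was left out, while its log2 fold change stayed between -0.40 and -0.25 under all settings run.

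FBA1 (YKL060C, chromosome XI, 326408 to 327487) encodes aldolase, which splits fructose bisphosphate into dihydroxyacetone phosphate and glyceraldehyde phosphate, and TPI1 (YDR050C, chromosome IV, 555726 to 556472) encodes the isomerase that interconverts the products. FBA1 was at 10022 and 8511 CPM in wild type and at 9667 and 9361 CPM in the deletion, so both deletion libraries lay between the wild-type ones. The log2 fold change was 0.04 ± 0.10, with a 95% interval from -0.18 to 0.26. TPI1 was at 5159 and 4279 CPM in wild type and at 4351 and 4512 CPM in the deletion, again between the wild-type libraries. Its log2 fold change was -0.09 ± 0.10 (interval -0.31 to 0.13) and 0.017 under scaling by total gene counts. When wild-type replicate 2 was left out, TPI1 was called lower at -0.21 (adjusted p = 0.0411), as was PGI1 at -0.38 (adjusted p = 0.000186); in both genes that library was the lower wild-type one. With wild-type replicate 1 left out in its place, TPI1 was at 0.054 and PGI1 at -0.12 (adjusted p = 0.386).

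TDH1, TDH2 and TDH3 encode isozymes of glyceraldehyde-3-phosphate dehydrogenase, which oxidizes glyceraldehyde phosphate while adding phosphate to it. TDH2 and TDH3 are known as the isozymes of growing cells, and TDH1 as the one that is made in resting cells. TDH1 (YJL052W, chromosome X, 338271 to 339269) and TDH2 (YJR009C, chromosome X, 453683 to 454681) lie on the same chromosome, and TDH3 (YGR192C, chromosome VII, 882812 to 883810) on another. Their coding sequences, read from the R64 assembly, are all 999 bases long. TDH2 and TDH3 differed at 42 bases (95.8% identical), TDH1 and TDH2 at 98, and TDH1 and TDH3 at 111.
The 70-base window in which TDH2 and TDH3 differ most, bases 54 to 123 of the coding sequence, is shown to display how reads can be assigned there. Capitals mark bases that differ from TDH3.
TDH3, chr7:883688-883757, minus strand: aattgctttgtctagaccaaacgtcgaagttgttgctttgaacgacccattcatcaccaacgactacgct
TDH2, chr10:454559-454628, minus strand: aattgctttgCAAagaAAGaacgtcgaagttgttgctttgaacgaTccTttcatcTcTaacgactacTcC
TDH1, chr10:338324-338393, plus strand: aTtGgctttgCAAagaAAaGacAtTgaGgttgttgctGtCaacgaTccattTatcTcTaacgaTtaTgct
In that window TDH2 differed from TDH3 at 12 bases and TDH1 at 19. At the other extreme, bases 355 to 527 are the same in TDH2 and TDH3, a run of 173 bases, so a read that lies within it matches both genes equally. The run is shown once for that pair, with TDH1, which differs at 18 bases, beside it.
TDH3, chr7:883284-883456, minus strand: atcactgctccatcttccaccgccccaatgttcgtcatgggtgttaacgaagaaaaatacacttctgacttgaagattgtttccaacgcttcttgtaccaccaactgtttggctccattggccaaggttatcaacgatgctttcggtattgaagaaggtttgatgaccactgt
TDH1, chr10:338625-338797, plus strand: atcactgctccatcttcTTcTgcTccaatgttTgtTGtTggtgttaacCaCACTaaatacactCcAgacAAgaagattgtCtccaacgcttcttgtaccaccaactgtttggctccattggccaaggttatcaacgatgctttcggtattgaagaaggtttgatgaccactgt
Of all 50-base windows of the coding sequence, 31.3% of those of TDH2, 24.4% of those of TDH3 and 15.7% of those of TDH1 occur elsewhere in the genome, and 0% of those of the other 7 genes. With 25-base windows the shares were 58.4%, 51.6% and 31.5%. Neither the read length nor the handling of multi-mapping reads is given in the sources used here, so the division of reads among the TDH genes is uncertain and their sum is given too.

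**Figure D2:**
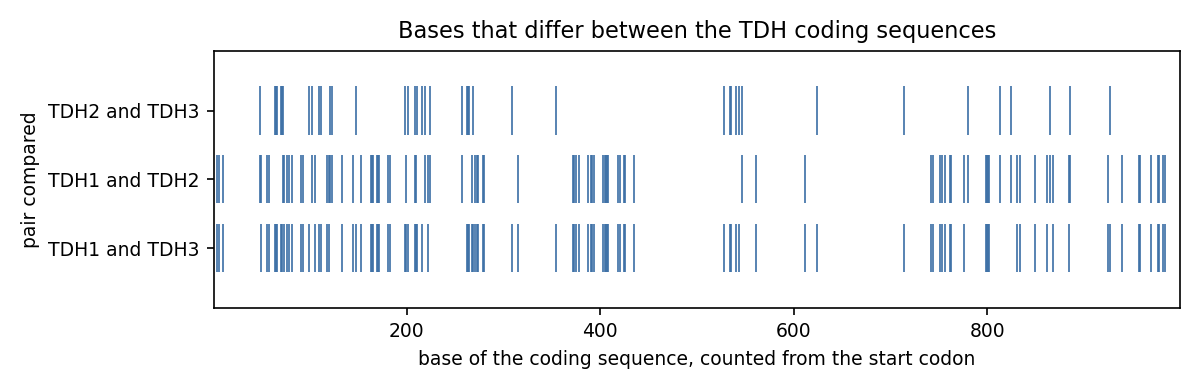
Position of each base that differs between the coding sequences of a pair of TDH genes, counted from the start codon (x axis, bases). TDH2 and TDH3 have the fewest marks, 42, and none between bases 355 and 527.

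TDH2 was at 5987 and 5776 CPM in wild type and at 4718 and 4519.8 CPM in the deletion. The genotypes were far apart compared with either pair of libraries, and the log2 fold change was -0.35 ± 0.09 (adjusted p = 0.0406); the level fell by 21.5%, with an interval from -31.6% to -9.81%. TDH3 was at 13347 and 14395 CPM in wild type and at 12519 and 12343 CPM in the deletion. Its levels did not overlap, but the difference of -0.16 ± 0.10 did not pass (adjusted p = 0.405), except without wild-type replicate 1 (-0.21, adjusted p = 0.00725); leaving out wild-type replicate 2 gave -0.093. TDH1 was at 1105 and 1027 CPM in wild type and at 1080.2 and 1112 CPM in the deletion, which overlapped (0.04 ± 0.09, interval -0.16 to 0.24). Summed, the TDH genes were at 20437 and 21199.7 CPM in wild type and at 18318 and 17973 CPM in the deletion. The sum was lower in both deletion libraries, at -0.20 ± 0.10 (adjusted p = 0.280; interval -0.41 to 0.0094), and passed only without wild-type replicate 1 (-0.22, adjusted p = 0.00165). The call of TDH2 did not hold with total gene counts (adjusted p = 0.141), nor when deletion replicate 1 (0.409) or deletion replicate 2 (0.547) was left out, and its log2 fold change ranged from -0.38 to -0.24.

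**Figure D3:**
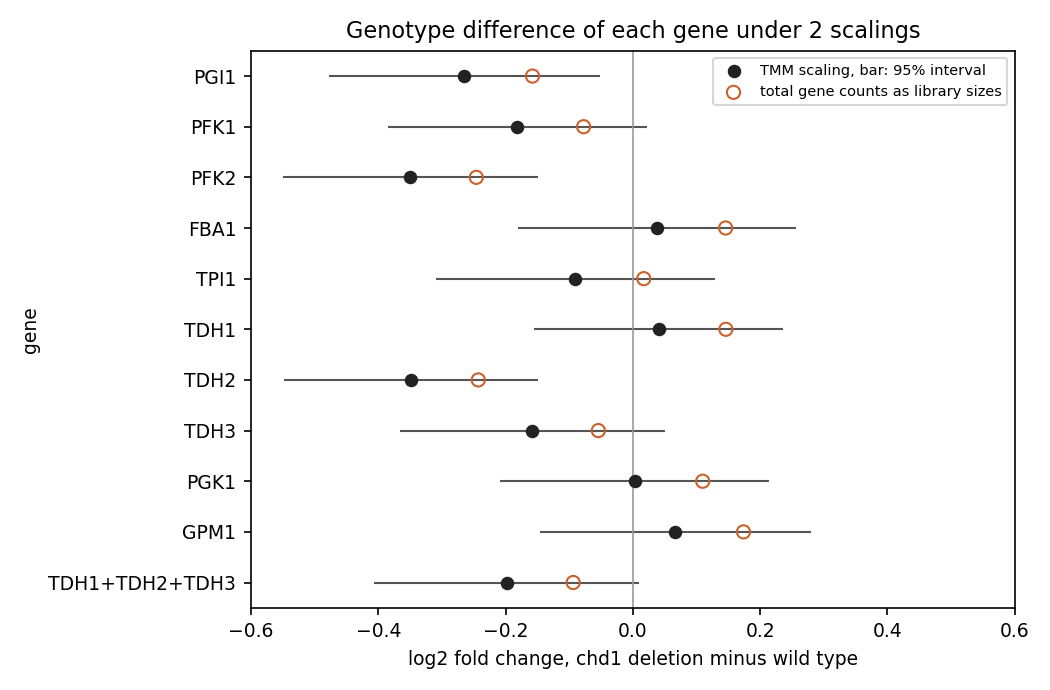
Log2 fold change (deletion minus wild type) of each gene and of the TDH sum, with TMM scaling (filled points, bars are 95% intervals) and with total gene counts as library sizes (open points). PFK2 and TDH2 lie lowest under both scalings, and total gene counts shift every point up by about 0.11.

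Ratios among the TDH genes within a library need no scaling, and those described here did not overlap between genotypes, at a p that this design cannot bring under 0.333. The ratio of TDH2 to TDH3 reads was 0.449 and 0.401 in wild type against 0.377 and 0.366 in the deletion. Both deletion libraries were lower, by 0.19 on the log2 scale, but the wild-type libraries also differed from each other (exact permutation p = 0.333), and the difference was -0.11 when wild-type replicate 1 was left out. TDH1 made up 5.41% of TDH reads in wild-type replicate 1 (95% Wilson interval 5.19 to 5.63) and 4.84% in replicate 2 (4.67 to 5.02), against 5.90% in deletion replicate 1 (5.74 to 6.06) and 6.18% in replicate 2 (5.97 to 6.40). The share was higher in both deletion libraries, by 0.916 percentage points, again at the smallest p this design allows, 0.333. The TDH genes together made up 38.5% and 43.0% of the reads of the 10 genes in wild type against 37.7% and 37.4% in the deletion, where wild-type replicate 2 stood highest.

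**Figure D4:**
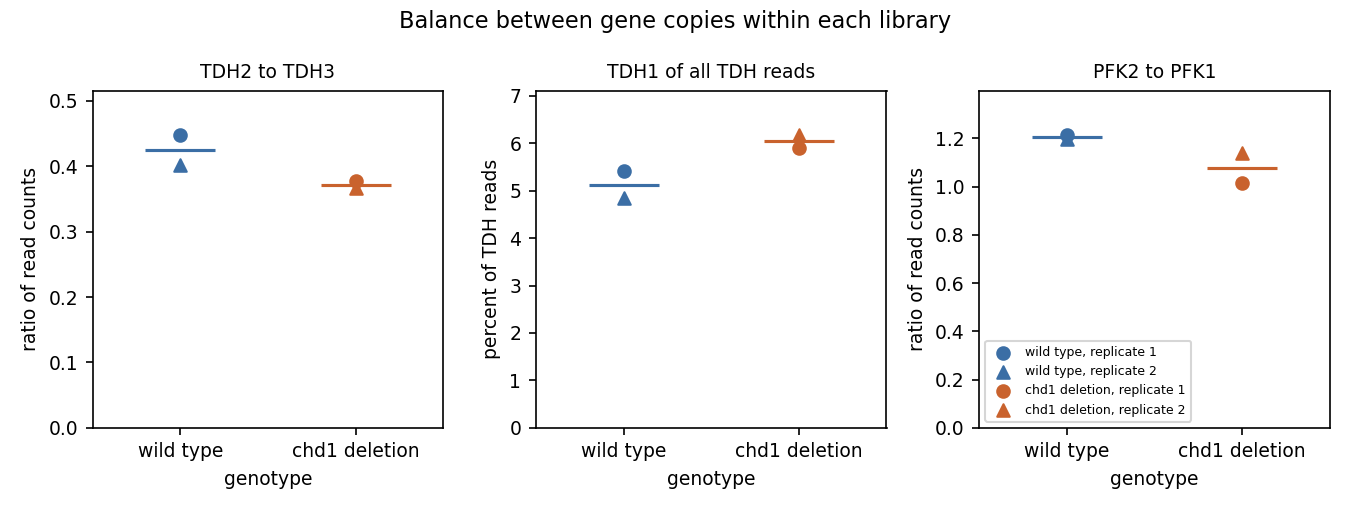
Ratio of TDH2 to TDH3 reads, TDH1 as a percent of all TDH reads and ratio of PFK2 to PFK1 reads in each library (points) with the mean of each genotype (lines, n = 2). In each panel the wild-type and deletion libraries do not overlap, with the TDH1 share higher and both ratios lower in the deletion.

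PGK1 (YCR012W, chromosome III, 137746 to 138996) encodes phosphoglycerate kinase, the first step of glycolysis that makes ATP, and GPM1 (YKL152C, chromosome XI, 163642 to 164385) encodes phosphoglycerate mutase. PGK1 was at 6630.5 and 5776 CPM in wild type and at 6096 and 6334 CPM in the deletion. Both deletion libraries lay between the wild-type ones, and the log2 fold change was 0.0029 ± 0.10 (interval -0.21 to 0.21). GPM1 was at 7449.5 and 6464 CPM in wild type and at 7432 and 7137 CPM in the deletion, with the same pattern (0.07 ± 0.10, interval -0.15 to 0.28). For FBA1, TPI1, PGK1 and GPM1 wild-type replicate 1 was the higher wild-type library, as it was for 7 of the 10 genes, and PFK1, PFK2 and TDH3 were higher in replicate 2. The gap between the wild-type libraries exceeded that between the deletion libraries in 9 of the 10 genes, and in 5 it exceeded the fitted difference between genotypes. Its median size was 0.16 on the log2 scale for the 10 genes and 0.18 for all tested genes. For the gap between the deletion libraries the medians were 0.054 and 0.13. How many of all tested genes have gaps ordered in these ways was not counted.

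Upstream sequence was searched on both strands for CTTCC, the core of the Gcr1 site, and ACCCNNACA, a part of the Rap1 site, in the 500 bases before each start codon of R64. CTTCC occurred before 9 of the 10 genes, TDH3 being the exception, and before 65.9% of 6019 protein-coding genes. Neighbouring genes were not masked. The matches of PGI1 (at 355 and 326 bases) and TDH1 (at 429 and 363) lie beyond the near edge of the next gene upstream, 123 and 267 bases away. ACCCNNACA occurred before 2 of the 10, PGK1 and GPM1, and before 5.45% of all. The pair of motifs do not overlap in letters, and 60-base stretches are shown for the called genes PFK2 and TDH2 and for PGK1 and GPM1, which hold both; capitals mark the matches on either strand.
PFK2, chr13:675207-675266, minus strand: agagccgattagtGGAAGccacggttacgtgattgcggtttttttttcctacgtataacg
TDH2, chr10:455056-455115, minus strand: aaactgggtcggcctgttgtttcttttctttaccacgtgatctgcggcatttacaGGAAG
PGK1, chr3:137260-137319, plus strand: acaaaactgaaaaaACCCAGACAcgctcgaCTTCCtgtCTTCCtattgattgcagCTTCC
GPM1, chr11:164738-164797, minus strand: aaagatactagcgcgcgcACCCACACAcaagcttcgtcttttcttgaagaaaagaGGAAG
In PGK1 the Rap1-like match began 472 bases before the start codon and was followed by 3 CTTCC matches at 456, 448 and 431. In PFK2 and TDH2 the matches shown began at 487 and 379, on the other strand. A match is a string of letters and not a measured binding site.

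Among the other genes of the pathway, 46 genes in 7 lists, 44 were tested; 2 rose, 4 fell and 38 did not pass, with a median log2 fold change of -0.12. The shares over all tested genes were 1.68% higher and 3.06% lower. In glucose phosphorylation and lower glycolysis, HXK1, a hexokinase gene that is repressed on glucose, rose from 51.8 and 43.2 CPM to 84.2 and 142 CPM (1.23 ± 0.20, adjusted p = 0.000798), and 7 of 8 did not pass. The enolase gene ENO2 was at 26277 and 26892 CPM in wild type against 21774.5 and 21747 CPM (-0.29, adjusted p = 0.107), and the pyruvate kinase gene CDC19 at 12099.9 and 12319.7 against 10153 and 9849 CPM (-0.29, adjusted p = 0.0958). Neither ENO2 nor CDC19 passed in edgeR, and they were the 2 genes of this list that DESeq2 called lower; both were named after their values were seen.

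The branches that leave the upper pathway held 4 of the 6 calls. In the pentose phosphate pathway, which draws glucose phosphate away to make NADPH and ribose, GND1 fell (-0.57 ± 0.10, adjusted p = 0.00115) from 717 and 727 to 467 and 506 CPM, and ZWF1 fell (-0.47 ± 0.11, adjusted p = 0.0167) from 162 and 173 to 119 and 124 CPM. GND1 encodes phosphogluconate dehydrogenase and ZWF1 glucose phosphate dehydrogenase, and 9 of 11 members did not pass. Of those, SOL3, SOL4, GND2, RKI1 and NQM1 lay above 0 on the log2 scale, and RPE1, TKL1, TKL2 and TAL1 below. The largest change was that of SOL4 (1.34 ± 0.39, adjusted p = 0.0542), on 7 to 31 reads a library. In the glycerol branch from dihydroxyacetone phosphate the glycerol phosphatase genes moved in opposite directions: RHR2 fell (-0.34 ± 0.09, adjusted p = 0.0432) from 1146 and 1144 to 936 and 876 CPM, and HOR2 rose (0.69 ± 0.13, adjusted p = 0.00262) from 68.6 and 77.7 to 110.0 and 129.6 CPM. In fermentation ADH4, an alcohol dehydrogenase gene, fell (-0.50 ± 0.13, adjusted p = 0.0283) from 101 and 126 to 83.1 and 77.7 CPM, and 6 of 7 did not pass. ADH4, RHR2 and ZWF1 did not pass with total gene counts or when either deletion library was left out, nor did GND1 without deletion replicate 1 (adjusted p = 0.0564). ADH4 also missed the threshold when wild-type replicate 2 was left out (-0.31, adjusted p = 0.252), and RHR2 at a minimum count of 50 (adjusted p = 0.0503).

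The lists of gluconeogenesis and fructose-2,6-bisphosphate (4 tested), of the minor mutase genes GPM2 and GPM3, and of regulators had 0 calls in edgeR. In that order they held 0, 1 and 0 genes at an unadjusted p under 0.05, and DESeq2 gave an adjusted p to 0 of these genes. PCK1 had the smallest p of the gluconeogenesis list (-0.38 ± 0.30, adjusted p = 0.526). GPM2 had that of the mutase list (0.84 ± 0.29, adjusted p = 0.107), on 14 to 47 reads a library. Among the regulators the activator gene GCR1 was at 98.7 and 87.0 CPM in wild type and at 105 and 99.7 CPM in the deletion (0.15 ± 0.12), GCR2 at 0.14 ± 0.14 and RAP1 at 0.05 ± 0.12. TYE7, an activator gene of glycolytic genes, had the smallest p of the list (-0.23 ± 0.11, adjusted p = 0.284).

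**Figure D5:**
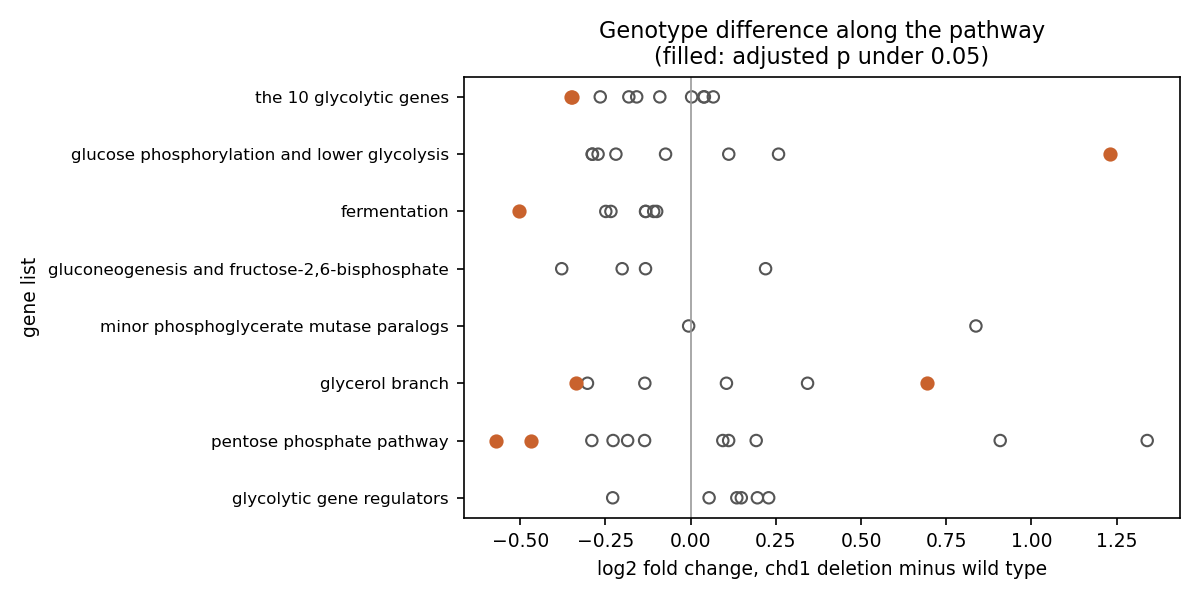
Log2 fold change (deletion minus wild type) of the 10 glycolytic genes and of the tested genes of 7 lists around them, 1 point a gene, filled where the adjusted p of edgeR passed. The 10 genes spread from -0.35 to 0.07, with the points of PFK2 and TDH2 on top of each other, and HXK1 at 1.23 and SOL4 at 1.34, not called, lie highest.

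Of 16 genes listed for glucose repression and starvation 15 were tested. In edgeR 6 rose, HSP12, HSP26, GPH1, SPI1, YGP1 and HXK1, and 0 fell, where 1.68% of all tested genes were called higher. DESeq2 called 0 and gave an adjusted p to 2 of the 15. The list summed to 1354 and 1265 CPM in wild type and to 1425 and 1740.3 CPM in the deletion. ADH2 alone made up 746 and 659 CPM of the wild-type sums and 593 and 688 CPM of the deletion sums. Whether its reads are shared with other genes was not checked. The other 9 tested, ADH2, ICL1, MLS1, PCK1, SUC2, JEN1, CYB2, CTT1 and GLK1, did not pass. The list was not divided into glucose-repressed and starvation genes. FBP1, too low to test, had between 3 and 13 reads a library. The part of growth state in the differences of the glycolytic genes was not tested.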

How the data were processed

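Per the labels' protocols, total RNA was made into 4 libraries with a small-RNA kit. CASAVA 1.8, TopHat and the build sacCer3 appear in the submitters' processing notes; the counting program, annotation, read length, use of strand and handling of multi-mapping reads are not given in the sources used. The authors deposited raw read counts per gene (5816 rows) with a gene length. The other deposited column, a normalized score, equals the count divided by length and by 1 constant per library, and it entered no test. Intron tables were not used, since the 10 genes have no intron. Positions and sequences come from RefSeq's R64 assembly, whose UCSC name is sacCer3; 5810 identifiers were found in it, and no other annotated gene overlaps the 10.

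Counts were tested in R 4.3.3 with edgeR 4.0.16 (TMM, filterByExpr with its minimum count at 10, no covariate besides genotype), after a test on simulated counts. Standard errors were derived from the log2 fold change and the F statistic of edgeR, and 95% intervals from those errors and a t distribution. DESeq2 1.42.0, other scalings and filters, a replicate block and leaving out each library were alternatives. Ratios and shares used exact permutation tests in scipy 1.17.1. Named genes are the 10 members, CHD1 and, from the other lists, genes past the threshold or of smallest p. Genes outside that rule are named too, among them ENO2, CDC19, GCR1, GCR2, RAP1, SOL4, ADH2 and the cell-type genes. Members and lists were chosen with earlier results of these data known.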

Additional observations from a re-analysis of the deposited data

How the results depend on the processing

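The number of genes changed, 260 of 5488, was 166 of the 1078 to which DESeq2 gave an adjusted p, and ranged from 133 to 577 when 1 library was left out. The 2 calls among the 10 genes became 0 with total gene counts and ranged from 0 to 3 when 1 library was left out; in those fits the lone library of a genotype is assumed to vary like the other genotype's pair. Leaving out 1 library gave differences in the share of gene reads from -0.0021 to 0.150 percentage points. The negative value came without wild-type replicate 2. Without the genes that overlap ribosomal RNA genes the difference was 0.222 percentage points. The log2 fold change of the TDH sum ranged from -0.22 to -0.16 when 1 library was left out, and was -0.094 with total gene counts. The labels do not say whether same-numbered libraries belong together. Deviations of these libraries from the genotype mean correlated at 0.018 across 4942 genes and at -0.16 across the 10 genes. With 2 libraries a genotype, that cannot settle whether they shared a culture or a run. With the replicate block 424 genes were called, PFK2 and TDH2 among them. RLE factors, TMM factors without the 10 genes, no filter, a minimum count of 50 and DESeq2 kept the calls of PFK2 and TDH2. The cause of these changes was not tested. DESeq2 gave no adjusted p for CHD1, HXK1, HOR2 and ADH4.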
